A study of Arabidopsis thaliana with 20 samples.

Results

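The 10 genes described here encode the last steps that turn colourless flavonoid precursors into the decorated anthocyanins and flavonols of Arabidopsis thaliana leaves. They were chosen by gene identifier from the deposited tables, where they are 10 of 33104 genes. DFR (AT5G42800) reduces dihydroflavonols and LDOX (AT4G22880) oxidises the product to a coloured anthocyanidin. UGT78D2 (AT5G17050) adds glucose to flavonols and anthocyanidins, while UGT78D1 (AT1G30530) adds rhamnose to flavonols. UGT79B1 (AT5G54060) adds xylose and UGT75C1 (AT4G14090) adds a further glucose to the anthocyanin, and BGLU10 (AT4G27830) is a glycoside hydrolase-like enzyme that glucosylates acylated anthocyanins. 5MAT (AT3G29590) attaches malonate and SCPL10 (AT2G23000) attaches sinapate, taken from sinapoylglucose. TT19 (AT5G17220, GSTF12 in the tables) is a glutathione transferase-like protein needed to bring anthocyanin to the vacuole. As background, anthocyanins accumulate in the vacuoles of leaf cells in strong light and absorb part of it. The late genes of the pathway are known targets of a complex of a MYB factor such as PAP1, a bHLH factor such as TT8 and the WD40 protein TTG1, whereas early flavonoid and flavonol genes are driven by MYB11, MYB12 and MYB111.

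Poly-A RNA of whole leaves was sequenced in 20 libraries, 2 for each of 10 groups. Wild-type Col-0 was compared with ilp1-1, a line mutated in ILP1, whose product associates with the spliceosome. The plants were 4 weeks old and had grown in 10 h days at 100 µmol photons per m2 and s. Both genotypes were moved 2 h into the light period to 500 µmol and harvested at 0, 4, 8 and 16 h of high light. The harvest at 30 h came after 24 h of high light without a night and 6 h of normal light. Light, time of day and the lost night cannot be told apart, since unshifted plants sampled at those hours were not analysed here. The labels do not say whether the 2 libraries of a group come from separate plants or from pools, so p-values measure the spread between these libraries only.

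The reads recovered from the FPKM values (fragments per kilobase of transcript, scaled to sequencing depth) came to between 11.4 and 19.0 M per library. The libraries labelled ilp1-1 did not show less ILP1. It stood at 2.63 to 3.88 FPKM in the 10 Col-0 libraries, whereas those labelled ilp1-1 held 7.17 and 8.90 FPKM at 0 h, 4.67 and 5.03 at 4 h, 4.79 and 5.19 at 8 h, 4.32 and 2.72 at 16 h, and 3.33 and 3.02 at 30 h. The genotype is therefore taken from the labels throughout. In the 4 libraries labelled ilp1-1 of 4 h and 8 h, plastid genes took 0.0994 to 0.452% of the reads, against 0.0188 to 0.0349% in the other 16. The genotype differences at 4 h and 8 h rest on those 4 libraries, and the part of that share in them was not tested. Without those 4 libraries, no call at 0, 16 or 30 h was lost among the members other than UGT78D1 at 0 h and, in the difference between genotypes of the change to 16 h, UGT75C1 and UGT79B1, each in the same direction with an adjusted p above 0.05. Against the leaf label, 4 mesophyll markers summed to 26315 to 49583 FPKM in Col-0 and 15249 to 43206 in the libraries labelled ilp1-1, and 2 seed coat markers, BAN and TT2, to at most 0.200 FPKM. The 3 root markers summed to 6.00 to 17.4 FPKM in Col-0 and 7.12 to 12.6 in the libraries labelled ilp1-1. For 4 meristem and flower markers the sums were 2.17 to 4.66 and 1.61 to 6.64 FPKM. The mesophyll markers moved with genotype and time. In the mean genotype difference 3 of 4 were lower (median -0.49), beside 27.8% of all genes. From 0 h to 16 h in Col-0 their median change was -3.70, but the marker RBCS1A went from 19707 and 20249 FPKM to 25792 and 24106. The part of these markers in the results was not tested. In whole leaves, fewer cells of a type and less RNA per cell cannot be told apart.

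All 10 members lie on the nuclear chromosomes of TAIR10. DFR is at chr5:17164093-17166032, LDOX at chr4:12004726-12006209, UGT79B1 at chr5:21936746-21938396, UGT78D2 at chr5:5607788-5609589 and 5MAT at chr3:11398592-11400332, all on the minus strand. In the 250 bases before each annotated gene start, matches to the MYB recognition element ANCNNCC and to the E-box CANNTG, which bHLH factors can bind, were counted on both strands. The MYB element was found before 8 of the 10 members, with up to 5 matches each, and before 48.8% of 27419 promoters of the same length. The E-box was found before 6 of 10 members and 55.3% of promoters, and the G-box CACGTG, which is one form of the E-box, before 3 of 10 and 6.48%. The 5 stretches below are shown because DFR, LDOX, UGT79B1 and 5MAT are among the 5 members whose course was closest to that of the others (the window of the fifth, UGT75C1, runs into another annotated gene), and UGT78D2, which was already higher at 0 h in the libraries labelled ilp1-1, holds neither motif in its window. They are RefSeq sequence of TAIR10.1, whose gene starts and ends match those of the tables for 32532 of 32548 matched nuclear genes. They are written 5′ to 3′ on the gene's strand, with matches to the MYB element or the E-box in capitals (adjoining matches run together).
DFR, chr5:17166033-17166282, minus strand: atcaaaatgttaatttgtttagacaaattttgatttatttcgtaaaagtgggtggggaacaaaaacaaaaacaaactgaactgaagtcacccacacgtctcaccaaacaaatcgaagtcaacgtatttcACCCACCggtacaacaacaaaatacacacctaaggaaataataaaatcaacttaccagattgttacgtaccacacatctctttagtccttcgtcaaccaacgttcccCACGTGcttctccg
LDOX, chr4:12006210-12006459, minus strand: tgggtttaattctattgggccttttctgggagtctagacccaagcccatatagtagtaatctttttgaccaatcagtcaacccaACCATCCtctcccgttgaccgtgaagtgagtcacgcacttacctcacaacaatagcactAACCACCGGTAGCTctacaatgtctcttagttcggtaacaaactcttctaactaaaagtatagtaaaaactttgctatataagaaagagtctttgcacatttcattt
UGT79B1, chr5:21938397-21938646, minus strand: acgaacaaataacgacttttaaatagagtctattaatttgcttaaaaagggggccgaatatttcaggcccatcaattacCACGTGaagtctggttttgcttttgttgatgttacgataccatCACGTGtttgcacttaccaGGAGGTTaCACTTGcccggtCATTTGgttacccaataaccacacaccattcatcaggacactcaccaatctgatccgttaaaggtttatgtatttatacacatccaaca
5MAT, chr3:11400333-11400582, minus strand: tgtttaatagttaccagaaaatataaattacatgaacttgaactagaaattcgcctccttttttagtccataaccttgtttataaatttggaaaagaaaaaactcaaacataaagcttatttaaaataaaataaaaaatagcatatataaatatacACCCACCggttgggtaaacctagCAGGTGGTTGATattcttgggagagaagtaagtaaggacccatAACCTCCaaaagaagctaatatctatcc
UGT78D2, chr5:5609590-5609839, minus strand: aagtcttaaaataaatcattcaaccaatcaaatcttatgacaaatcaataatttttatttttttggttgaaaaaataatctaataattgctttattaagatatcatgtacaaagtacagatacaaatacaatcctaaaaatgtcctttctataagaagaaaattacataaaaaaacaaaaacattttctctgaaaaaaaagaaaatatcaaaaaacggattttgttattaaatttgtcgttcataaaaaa
DFR holds 1 MYB element and 1 G-box, LDOX 3 MYB elements and no E-box, UGT79B1 1 MYB element and 4 E-boxes of which 2 are G-boxes, and 5MAT 4 MYB elements and 1 E-box. Of the windows not shown, that of UGT78D1 also holds neither motif. That of SCPL10, which was higher at 0 h like UGT78D2, holds 3 MYB elements and 2 E-boxes, of which 1 is a G-box. The windows of UGT78D1 and SCPL10 both run into another annotated gene. A match describes the letters of the window and is not a site shown to be bound.

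In Col-0 the core enzymes of anthocyanin synthesis rose up to the sample at 16 h of high light and were lower again at 30 h. The hours between these samples were not covered. DFR stood at 29.97 and 36.6 FPKM at 0 h, 98.0 and 127 at 4 h, 192 and 228 at 8 h, 536 and 519 at 16 h, and 66.9 and 58.5 at 30 h. LDOX followed with 27.8 and 33.2 FPKM at 0 h, 104 and 128 at 4 h, 217 and 234 at 8 h, 549.9 and 504 at 16 h, and 44.7 and 33.8 at 30 h. For both genes every later Col-0 library lay above both of 0 h, and the libraries of 16 h were the highest. Mean FPKM at 16 h was 15.9-fold that at 0 h for DFR (log2 change of FPKM + 1 of 3.95 ± 0.20 SE, limma adjusted p = 2.46e-10) and 17.3-fold for LDOX (4.07 ± 0.19, adjusted p = 1.22e-10).

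Of the glycosyltransferases, UGT79B1 and UGT75C1 had the largest relative rise of the 10 genes in Col-0. UGT79B1, the xylosyltransferase, had 5.72 and 7.05 FPKM in the Col-0 libraries at 0 h, 18.1 and 24.5 at 4 h, 63.1 and 68.3 at 8 h, 139 and 134 at 16 h, and 12.8 and 13.5 at 30 h. UGT75C1 had 6.02 and 8.89, 20.4 and 26.6, 62.1 and 73.4, 159 and 151, and 16.8 and 14.2 FPKM at the same times. The groups of 0 h and 16 h were far apart for both genes, with mean FPKM 21.4-fold and 20.8-fold higher at 16 h. UGT78D2, the glucosyltransferase shared with flavonols, held 30.5 and 36.5 FPKM at 0 h, 70.7 and 92.3 at 4 h, 138 and 159 at 8 h, 297 and 284 at 16 h, and 33.2 and 27.5 at 30 h, an 8.68-fold rise to 16 h. Its level at 30 h overlapped that at 0 h (log2 change -0.14 ± 0.14, adjusted p = 0.488). The overlap of UGT75C1 with AT4G14100 on the opposite strand covers 230 of its 1648 bases, and that gene had 21.8 to 38.7 FPKM. The strand setting of the authors' counting is not given in the sources used here, so reads of such an overlap cannot be told apart.

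The acyltransferases and the transport gene rose with them. 5MAT went from 6.45 and 7.76 FPKM at 0 h in Col-0 to 16.2 and 23.9 at 4 h, 38.2 and 44.4 at 8 h, and 81.9 in each library at 16 h, with 7.52 and 5.46 at 30 h. SCPL10 had 24.8 and 21.0 FPKM at 0 h, 50.2 and 58.4 at 4 h, 60.6 and 63.4 at 8 h, 131 and 115 at 16 h, and 24.2 and 21.6 at 30 h. In Col-0, both were above their libraries of 0 h in every library from 4 h to 16 h, and their libraries of 30 h overlapped those of 0 h. SCPL10 shares 21 bases with the lncRNA gene AT2G07855 on the opposite strand, which had at most 0.645 FPKM. TT19 had 31.8 and 34.2 FPKM at 0 h, 83.3 and 102 at 4 h, 191 and 223 at 8 h, 455 and 454 at 16 h, and 82.1 and 70.3 at 30 h, and was thus the third most abundant of the 10 per length at 16 h, after DFR and LDOX. Levels of DFR and LDOX at 16 h in Col-0 overlapped each other. TT19 shares 108 bases of its span with PSY, the carotenoid enzyme phytoene synthase, on the opposite strand (82.2 to 225 FPKM).

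Both remaining members kept to other courses. UGT78D1, the flavonol rhamnosyltransferase, was the most abundant member per length at 0 h in Col-0, at 90.2 and 95.7 FPKM. It reached 129.5 and 122 at 4 h, 211 and 185 at 8 h, and 214 and 199 at 16 h, and stood at 58.1 and 59.7 at 30 h. Its libraries of 8 h and 16 h overlapped, and those of 30 h lay below those of 0 h (log2 change -0.65 ± 0.11, limma adjusted p = 0.000166). BGLU10 had 20.4 and 21.7 FPKM at 0 h, 20.8 and 18.0 at 4 h, 18.4 and 21.2 at 8 h, 40.7 and 39.1 at 16 h, and 26.6 and 19.0 at 30 h. Only the libraries of 16 h stood above the others for BGLU10 (0.89 ± 0.15, adjusted p = 0.000145), and the changes at 4 h and 8 h did not pass (-0.11 ± 0.15, adjusted p = 0.565, and -0.09 ± 0.15, adjusted p = 0.668).

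**Figure D1:**
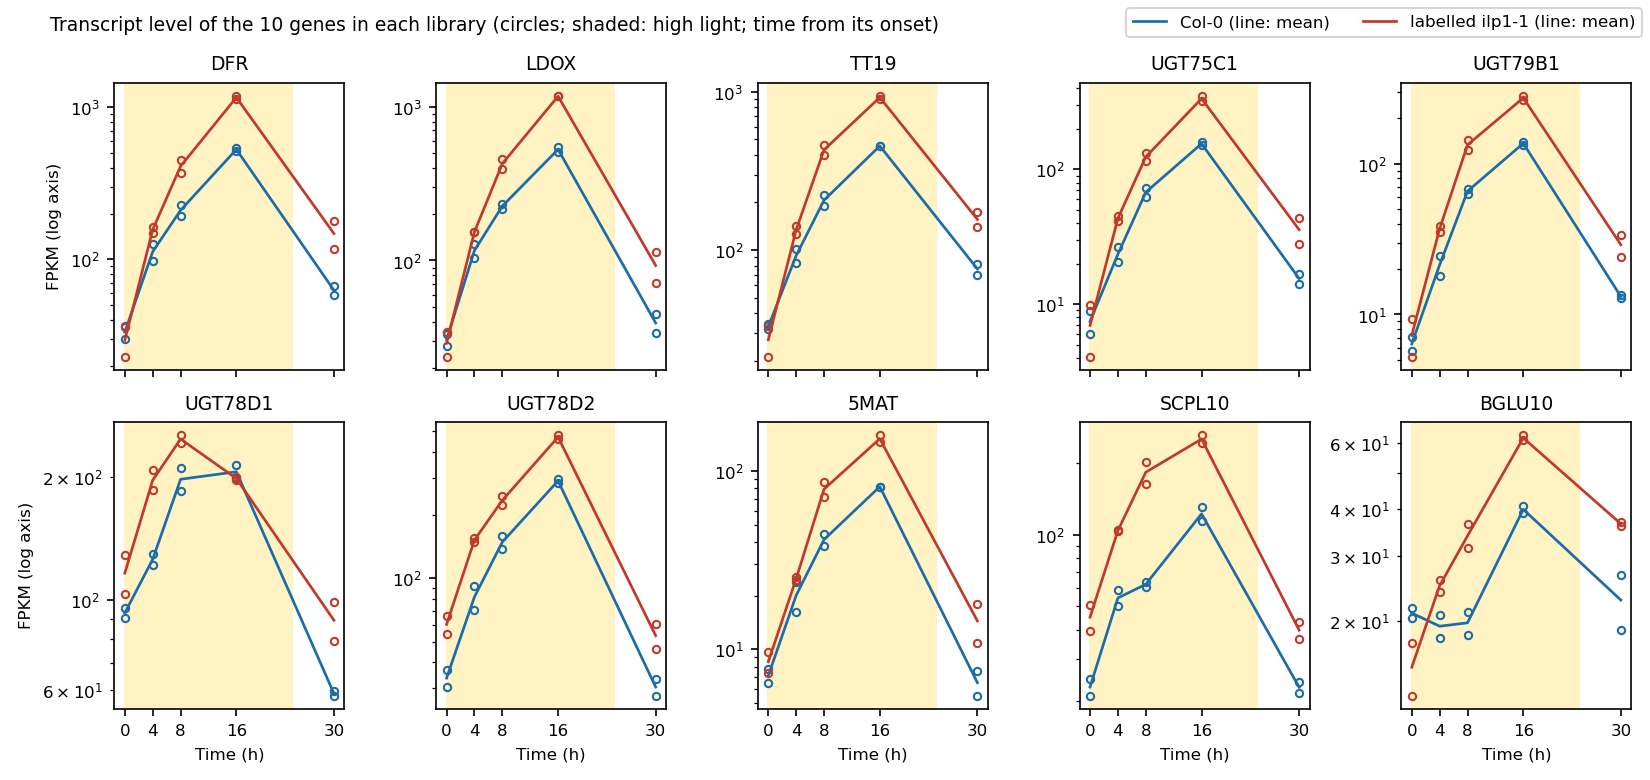
FPKM (log axis) of each of the 10 genes in every library (circles) against hours from the onset of high light, with lines through the group means of Col-0 (blue) and of the libraries labelled ilp1-1 (red) and the high light period shaded. Except for UGT78D1, each gene peaks at 16 h in both genotypes, where DFR reaches 1184 and 1132 FPKM in the libraries labelled ilp1-1 and 536 and 519 in Col-0.

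Counted together, 9 of 10 members were higher than at 0 h in Col-0 at 4 h, where 22.6% of the 19311 tested genes were higher. The count was again 9 of 10 after 8 h (24.9% of all genes) and 10 of 10 after 16 h (22.2%), and 4 of 10 at 30 h, with 1 lower (20.8% higher and 19.7% lower among all genes). The 4 still higher at 30 h were DFR, TT19, UGT75C1 and UGT79B1, by 0.90 to 1.18 on the log2 scale. The median log2 change of the 10 was 1.41, 2.50, 3.55 and 0.22 at 4, 8, 16 and 30 h, beside an all-gene median between -0.04 and -0.01. The call of UGT75C1 at 30 h ended without Col-0 0 h replicate 1 or without Col-0 30 h replicate 1 (adjusted p up to 0.1004).

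In the libraries labelled ilp1-1 the rise was steeper for the core enzymes. DFR had 35.9 and 23.0 FPKM at 0 h, 163 and 150.1 at 4 h, 450.1 and 369 at 8 h, 1184 and 1132 at 16 h, and 118 and 178 at 30 h. LDOX had 34.2 and 23.7, 154 and 153, 459.7 and 391.8, 1165 and 1171, and 71.9 and 114 FPKM at these times. At 0 h both genes overlapped Col-0, and from 4 h on both libraries labelled ilp1-1 lay above both of Col-0. The difference in log2(FPKM + 1) for DFR had an SE of 0.20 and was -0.20, 0.49, 0.96, 1.13 and 1.20 at 0, 4, 8, 16 and 30 h (limma adjusted p = 0.530, 0.079, 0.00208, 0.000541 and 0.000262). LDOX gave -0.09, 0.41, 0.91, 1.15 and 1.20, of which the last 3 passed (adjusted p = 0.00236, 0.000356 and 0.000195). Mean FPKM at 16 h was 2.19-fold that of Col-0 for DFR and 2.22-fold for LDOX.

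The anthocyanin glycosyltransferases differed already at 4 h. UGT79B1 had 9.27 and 5.26 FPKM at 0 h in the libraries labelled ilp1-1, 35.3 and 38.8 at 4 h, 143 and 123 at 8 h, 281 and 265 at 16 h, and 24.1 and 33.8 at 30 h. UGT75C1 had 9.84 and 4.08, 41.4 and 45.3, 133 and 115, 351 and 320.4, and 28.1 and 43.3 FPKM. Both were spread widely at 0 h, across the range of Col-0, and lay wholly above Col-0 from 4 h on. The differences at 4 h were 0.78 ± 0.20 for UGT79B1 (limma adjusted p = 0.00674) and 0.86 ± 0.27 for UGT75C1 (adjusted p = 0.0242), and at 16 h 1.00 ± 0.20 (0.00129) and 1.11 ± 0.27 (0.00628). Without Col-0 4 h replicate 1 or ilp1-1 4 h replicate 2 neither passed at 4 h, and UGT75C1 did not without ilp1-1 4 h replicate 1 (adjusted p up to 0.163 for UGT75C1 and 0.0879 for UGT79B1). At 8 h UGT75C1 (0.86 ± 0.27, adjusted p = 0.0255) was lost without any 1 of the 4 libraries of that time (adjusted p up to 0.144).

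UGT78D2 and SCPL10 were higher in the libraries labelled ilp1-1 before high light began, and at each later time. UGT78D2 had 66.2 and 54.5 FPKM at 0 h, 155 and 148 at 4 h, 246 and 224 at 8 h, 478 and 461 at 16 h, and 46.3 and 60.4 at 30 h. SCPL10 had 50.6 and 39.6, 105 and 104, 204 and 164, 262 and 244, and 36.6 and 42.9 FPKM. At none of the 5 times did either gene overlap Col-0. For UGT78D2 the difference was 0.83 ± 0.14 at 0 h (limma adjusted p = 0.000715) and between 0.66 and 0.90 at the other times. For SCPL10 it was 0.94 ± 0.13 at 0 h (adjusted p = 0.000103), 1.54 ± 0.13 at 8 h (adjusted p = 5.11e-07), and 0.93, 1.04 and 0.77 at 4, 16 and 30 h. All of these calls passed under each alternative tried.

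5MAT, TT19 and BGLU10 had no such lead at 0 h. 5MAT had 9.68 and 7.33 FPKM at 0 h in the libraries labelled ilp1-1, 25.4 and 24.4 at 4 h, 86.8 and 71.9 at 8 h, 159 and 146 at 16 h, and 10.9 and 17.9 at 30 h. TT19 had 33.1 and 21.3, 142 and 127, 463 and 396, 938 and 900.4, and 139.8 and 173 FPKM. Both overlapped Col-0 at 0 h and lay above it at all later times, the 5MAT groups of 4 h being almost in contact. The difference for 5MAT was 0.32 ± 0.21 at 4 h (limma adjusted p = 0.269) and 0.92 ± 0.21 at 8 h (0.00373), and for TT19 it was 0.54 ± 0.16 at 4 h (0.0197) and 1.05 ± 0.16 at 8 h (0.000173). BGLU10 had 12.6 and 17.5, 25.8 and 24.0, 36.4 and 31.4, 62.9 and 61.0, and 36.9 and 36.1 FPKM. It was the 1 member that was lower than Col-0 at 0 h (-0.47 ± 0.15, adjusted p = 0.0324). It was higher at 8 h (0.74 ± 0.15, adjusted p = 0.00148), 16 h (0.62 ± 0.15, 0.00529) and 30 h (0.67 ± 0.15, 0.00245). The call at 30 h ended with only the libraries of the contrast (adjusted p = 0.0601). The lower call of BGLU10 at 0 h, where its groups did not overlap, ended under 7 of 28 alternatives, among them without Col-0 0 h replicate 1, Col-0 0 h replicate 2 or ilp1-1 0 h replicate 1, and that of TT19 at 4 h without Col-0 4 h replicate 1 or ilp1-1 4 h replicate 1 (adjusted p up to 0.325 and 0.165).

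UGT78D1 had the smallest difference of the 10 in the mean of the 5 times (0.36 ± 0.05), though not at each time. The libraries labelled ilp1-1 had 129 and 104 FPKM at 0 h, 186 and 208 at 4 h, 243 and 254 at 8 h, 200.5 and 197 at 16 h, and 79.3 and 98.9 at 30 h. They lay above Col-0 at 0, 4, 8 and 30 h, and at 16 h fell within or just below its range. The difference was 0.64 ± 0.11 at 4 h (limma adjusted p = 0.000332) and 0.58 ± 0.11 at 30 h (0.000612), but -0.05 ± 0.11 at 16 h (0.757). At 0 h it was 0.31 ± 0.11 (0.048), a call that ended under 21 of 28 alternatives, and at 8 h it was 0.33 ± 0.11 (0.0307), lost under 5 of 27.

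**Figure D2:**
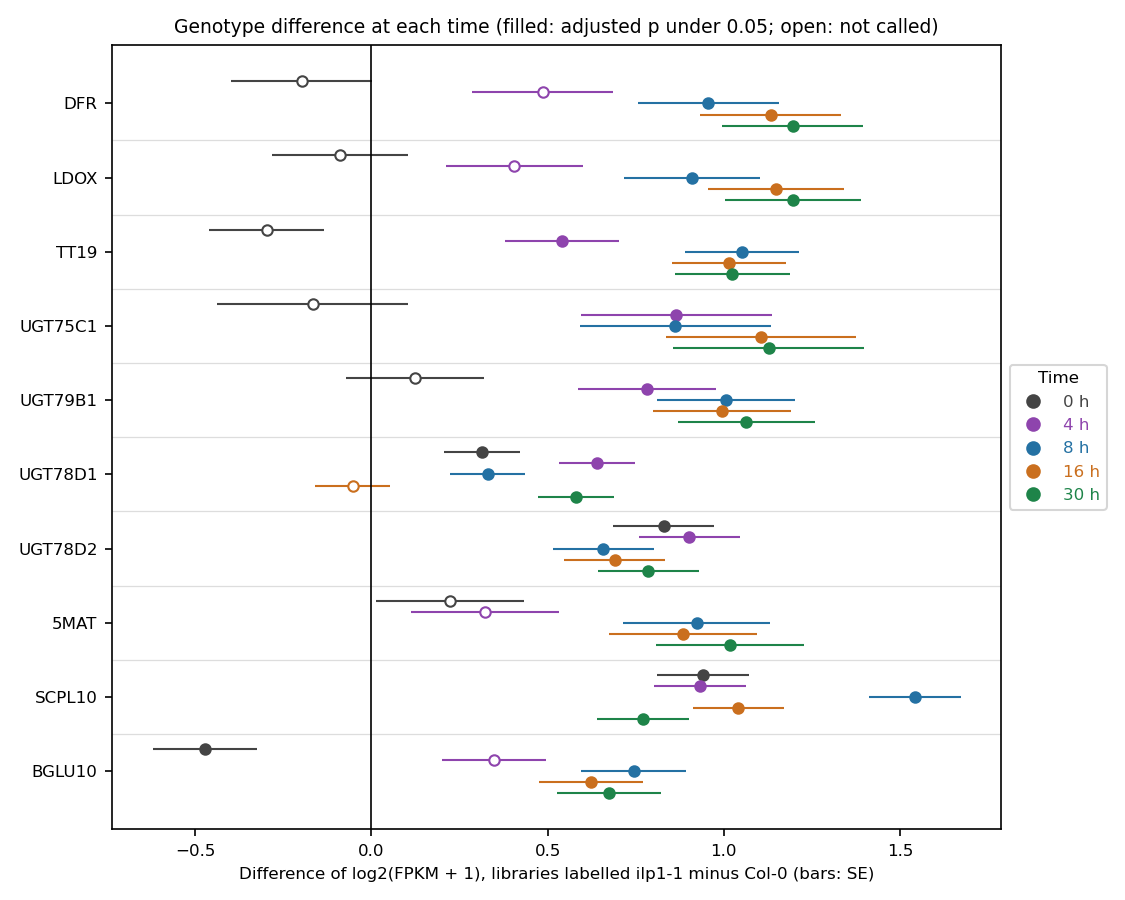
Difference in log2(FPKM + 1) between the libraries labelled ilp1-1 and Col-0 for each of the 10 genes at each time, with bars of 1 SE and filled points for adjusted p under 0.05. UGT78D2 and SCPL10 are to the right of 0 at every time, whereas DFR, LDOX, TT19 and UGT75C1 move from -0.30 to -0.09 at 0 h to between 0.86 and 1.20 at 8, 16 and 30 h.

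Over the 10 members, 3 were higher and 1 lower in the libraries labelled ilp1-1 at 0 h, where 10% of all tested genes were higher and 12.2% lower. Higher members numbered 6, 10, 9 and 10 at 4, 8, 16 and 30 h, beside 14.7, 14.3, 11 and 17.2% of all genes. Their differences at those times were above 0 apart from that of UGT78D1 at 16 h (-0.05), while 15.8, 15.2, 16.7 and 16.8% of all genes were lower. With no filter the count at 8 h was 8, since UGT75C1 and UGT78D1 did not pass. With only the libraries of the contrast the count at 30 h was 8, since 5MAT (limma adjusted p = 0.0718) and BGLU10 (0.0601) did not pass. Without Col-0 4 h replicate 1 the count at 4 h was 3. Both libraries labelled ilp1-1 lay above both of Col-0 for 3, 10, 10, 9 and 10 members at the 5 times, beside 29, 33.1, 34.2, 30.6 and 35.5% of all genes. The median difference of the members was 0.02, 0.59, 0.92, 1.01 and 1.02 at 0, 4, 8, 16 and 30 h, and the all-gene median was between -0.0012 and 0.04. As the mean of the 5 times all 10 were higher, by 0.36 to 1.05, where 29.3% of all genes were. When the recovered reads were scaled to library totals instead, the all-gene median moved to 0.23 at 16 h and the share of higher genes among those called from 39.7 to 78.1%. The 9 members higher at 16 h then differed by 0.90 to 1.43, above that shift, and UGT78D1 by 0.23, which equals it.

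Whether the course from 0 h itself differed between genotypes was tested as an interaction. The rise to 16 h was larger in the libraries labelled ilp1-1 for DFR (by 1.33 ± 0.28 on the log2 scale, limma adjusted p = 0.00463), LDOX (1.24 ± 0.27, 0.00606), TT19 (1.31 ± 0.23, 0.00104), UGT75C1 (1.27 ± 0.38, 0.037), UGT79B1 (0.87 ± 0.28, 0.0472) and BGLU10 (1.10 ± 0.21, 0.00216). That makes 6 of 10 members, beside 4.6% of all genes. Over all genes, the share of higher among those called at 16 h was 32.4%, and 61.0% when scaled to total recovered reads. Mean FPKM of DFR at 16 h was 39.3-fold that at 0 h in the libraries labelled ilp1-1 against 15.9-fold in Col-0, that of TT19 33.7-fold against 13.8-fold and that of BGLU10 4.11-fold against 1.90-fold. For UGT78D2 and SCPL10, the interactions at 16 h were -0.14 ± 0.20 and 0.10 ± 0.18 and did not pass (adjusted p = 0.731 and 0.790), nor did those of 5MAT (0.66 ± 0.30, 0.162) and UGT78D1 (-0.37 ± 0.15, 0.128). Interactions that passed numbered 2, 6 and 6 of 10 at 4, 8 and 30 h (4.22, 6.49 and 7.65% of all genes). The calls of UGT79B1 at 8 h and 16 h ended under 21 of 27 and 22 of 28 alternatives, and that of UGT75C1 at 16 h under 11 of 28, among them without ilp1-1 0 h replicate 2, the library lowest in DFR, LDOX, TT19, UGT75C1 and UGT79B1.

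In the libraries labelled ilp1-1 alone, 10 of 10 members were higher than at 0 h at 4 h (20.6% of all genes), 8 h (23.8%) and 16 h (21.7%). At 30 h 7 were still higher (27.6% of all genes) and UGT78D1 was lower (24.5%). These were DFR, by 2.29 ± 0.20 (limma adjusted p = 1.27e-07), TT19, by 2.50 ± 0.16 (4.72e-09), UGT75C1, UGT79B1, LDOX, BGLU10 and 5MAT. SCPL10 (-0.17 ± 0.13, adjusted p = 0.293) and UGT78D2 (-0.18 ± 0.14, adjusted p = 0.318) did not differ beyond the spread. The lower call of UGT78D1 (-0.38 ± 0.11, adjusted p = 0.00752) was lost without ilp1-1 0 h replicate 1 or ilp1-1 30 h replicate 1, and that of 5MAT (0.67 ± 0.21, 0.0138) without ilp1-1 0 h replicate 2 or ilp1-1 30 h replicate 2. Both calls were also lost with only the libraries of the contrast, and that of UGT78D1 with scaling to total recovered reads. The comparisons with 0 h share their 0 h libraries with each other and with the genotype difference at 0 h.

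From 16 h to 30 h, which spans the rest of the high light and the return to normal light, all 10 members fell in both genotypes (19.3% of all genes in Col-0 and 20% in the libraries labelled ilp1-1 were lower). LDOX changed most in both, by -3.72 ± 0.19 in Col-0 (limma adjusted p = 9.4e-10) and -3.68 ± 0.19 in the libraries labelled ilp1-1 (1.5e-09). DFR changed by -3.06 ± 0.20 and -2.99 ± 0.20, and BGLU10 least, by -0.80 ± 0.15 and -0.75 ± 0.15. A difference between genotypes in this step was not tested.

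The ratio of members shows this change in proportion. DFR over LDOX in FPKM stayed between 0.886 and 1.10 in the 16 libraries of 0 to 16 h and was 1.495 to 1.73 in the 4 libraries of 30 h, a pattern singled out after its values were seen. UGT78D1 over UGT78D2, the flavonol rhamnosyltransferase over the glucosyltransferase, was 2.62 and 2.96 in Col-0 at 0 h, 0.699 and 0.721 at 16 h, and 1.75 and 2.17 at 30 h. Among those labelled ilp1-1 this ratio was 1.90 and 1.95 at 0 h, 0.420 and 0.427 at 16 h, and 1.64 and 1.71 at 30 h. The order of both genes therefore turned over between 0 h and 16 h in either genotype. The 10 genes together summed to 274 and 303 FPKM in Col-0 at 0 h and to 2604 and 2481 at 16 h, and in the libraries labelled ilp1-1 to 391 and 299.8 and to 5080 and 4899.

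**Figure D3:**
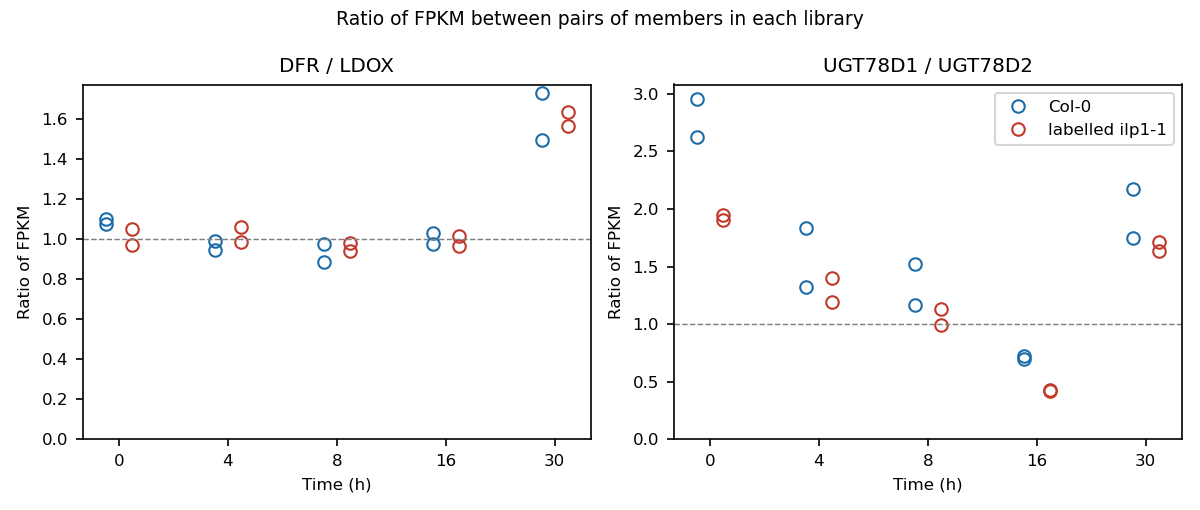
Ratio of FPKM of DFR to LDOX (left) and of UGT78D1 to UGT78D2 (right) in each library (circles) by time and genotype, with a dashed line at 1. The left ratio is 0.886 to 1.10 up to 16 h and 1.495 to 1.73 at 30 h, and the right one falls below 1 in all 4 libraries of 16 h.

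Across the 10 group means of log2(FPKM + 1), LDOX correlated with the mean of the other 9 members at r = 0.993, UGT79B1 at 0.988, 5MAT at 0.987, UGT75C1 at 0.983, DFR at 0.980, TT19 at 0.962, UGT78D2 at 0.956 and SCPL10 at 0.931. UGT78D1 (0.784) and BGLU10 (0.768) stood apart, and their correlation with each other was 0.390. These values describe 10 groups that share the light course, and no test is attached. Among 12110 other genes with a mean of at least 5 FPKM, the course most like that of the members was that of 3AT1 (r = 0.992), an anthocyanin coumaroyltransferase. It was followed by TT8 (0.987), AT1G03495 (0.987, the related coumaroyltransferase 3AT2), AT1G28600 (0.986), CYP75B1 (0.986), the flavonoid hydroxylase of the B ring, AT3G27570 (0.983), WRKY44 (0.979) and UGT84A2 (0.974), which makes sinapoylglucose.

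The enzymes upstream were mostly higher. Of 14 general phenylpropanoid and early flavonoid genes, 11 exceeded Col-0 as the mean of the 5 times and none was lower (median 0.92, against 29.3% of all genes higher, 27.8% lower and an all-gene median of 0.01). The 14 include F3H, which reached 1 FPKM only in the libraries labelled ilp1-1 of 16 h (1.45 and 1.52). It was therefore tested only through the group where it is highest, and the counts and medians of this list include it. Chalcone isomerase CHI differed by 0.99 ± 0.04 (limma adjusted p = 4.31e-12), 4CL3, which activates coumarate, by 1.11 ± 0.04, chalcone synthase CHS by 1.08 ± 0.04 (1.14e-11) and flavonol synthase FLS1 by 1.16 ± 0.05 (1.15e-11). Already at 0 h 10 of the 14 were higher (10% of all genes), with a median of 0.72, where the median of the 10 late genes was 0.02. CHS had 332 and 351 FPKM in Col-0 and 627 and 549 in the libraries labelled ilp1-1 at 0 h, which do not overlap. The rise to 16 h had a median of 2.50 in Col-0 and 1.80 in the libraries labelled ilp1-1 for these genes, beside 3.55 and 4.54 for the 10 late genes. The medians cover unlike courses. CYP75B1 rose from 4.25 and 5.44 FPKM to 377 and 372 in Col-0, and from 8.93 and 4.27 to 922 and 854 in the libraries labelled ilp1-1. By contrast, 4CL1 fell from 55.2 and 51.3 to 28.6 and 35.4 in Col-0, and from 82.3 and 74.6 to 34.2 and 31.3 in the others. The interaction at 16 h was lower for 3 of the 14 (9.59% of all genes), FLS1 among them (-0.63 ± 0.15).

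Among 8 activators of the late genes, 5 were higher in the mean of the 5 times and none was lower (median 0.54), beside 29.3 and 27.8% of all genes. PAP2, a MYB factor of the complex, differed by 2.12 ± 0.15 (limma adjusted p = 6.97e-09), PAP1 by 0.92 ± 0.08 (8.92e-08), TT8 by 0.59 ± 0.07 (5.76e-06) and GL3, another bHLH partner, by 0.65 ± 0.08 (5.84e-06). PAP2 stood at 4.61 and 1.09 FPKM in Col-0 at 4 h and at 57.5 and 58.9 in the libraries labelled ilp1-1, and at 16 h at 49.99 and 47.0 against 160.3 and 142. PAP1 at 4 h had 85.0 and 97.0 against 271 and 320.2 FPKM. For both the groups lay far apart. All 4 flavonol regulators were higher in the mean of the 5 times (median 0.82). MYB12 differed by 0.94 ± 0.06 (adjusted p = 6.97e-09), MYB11 by 1.01 ± 0.07 (9.27e-09), MYB111 by 0.63 ± 0.07 (2.86e-06) and HY5, a light-signalling factor, by 0.70 ± 0.05 (9.1e-09). HY5 and MYB111 were not higher at each time. At 8 h HY5 had 25.2 and 25.5 FPKM in Col-0 against 22.1 and 24.2 in the libraries labelled ilp1-1. MYB111 at 16 h had 32.5 and 30.5 against 31.2 and 33.3, which overlap.

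Of 6 repressors, 4 were lower in the mean and 1 was higher (median -0.43, where 27.8% of all genes were lower). LBD37, a repressor induced by nitrogen, was lower by -1.16 ± 0.04 (limma adjusted p = 6.7e-12), MYBL2, which competes for the complex, by -0.54 ± 0.07 (4.82e-06) and LBD38 by -0.43 ± 0.07 (6.61e-05), while CPC, a small MYB protein of the same kind of action, was higher by 1.08 ± 0.09 (1.24e-07). MYBL2 did not keep its direction: it had 48.8 and 50.8 FPKM in Col-0 and 13.8 and 16.9 in the libraries labelled ilp1-1 at 0 h, but 14.98 and 14.6 against 22.8 and 27.1 at 16 h. The difference was -1.64 ± 0.15 at 0 h and 0.71 ± 0.15 at 16 h, and both passed.

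Other decoration enzymes were mostly higher, 10 of the 11 tested in the mean of the 5 times, with a median of 0.53, beside 29.3% of all genes. The 11 include UGT79B3, which in Col-0 reached 1 FPKM only in 16 h replicate 2 (2.03). In the libraries labelled ilp1-1 it did so at 8 h (1.01 and 1.23) and 16 h (1.48 and 1.79). It was therefore tested only through the genotype where it is higher, and the count and median include it. UGT84A2, the source of the sinapate donor of SCPL10, differed by 0.84 ± 0.05 (limma adjusted p = 3.55e-10), the rhamnose synthase RHM1 by 0.59 ± 0.04 (1.81e-09) and the transporter DTX35 by 0.54 ± 0.04 (5.88e-09). SCPL8, which uses the same donor to make sinapoylmalate and lies beside SCPL10 on chromosome 2, was lower (-1.16 ± 0.09, adjusted p = 4.41e-08). It fell from 113 and 112 FPKM in Col-0 at 0 h to 7.84 and 10.3 at 16 h, and from 99.6 and 108 to 2.61 and 0.932 in the libraries labelled ilp1-1, while SCPL10 rose in both genotypes. Of 14 tested relatives and neighbours of the members 6 were higher and 4 lower (median 0.06), beside 29.3 and 27.8% of all genes. Some of the 14 also belong to a list above. The 14 include SCPL12, which reached 1 FPKM only in Col-0 (1.08 in 8 h replicate 1 and 1.02 in 30 h replicate 2). It was therefore tested only through the genotype where it is higher. In the same SCPL cluster SCPL9 was higher (0.42 ± 0.06, adjusted p = 2.92e-05) and SCPL13 lower (-1.57 ± 0.08, adjusted p = 3.52e-10), and how reads that match several of these copies were counted is not given in the sources used here.

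**Figure D4:**
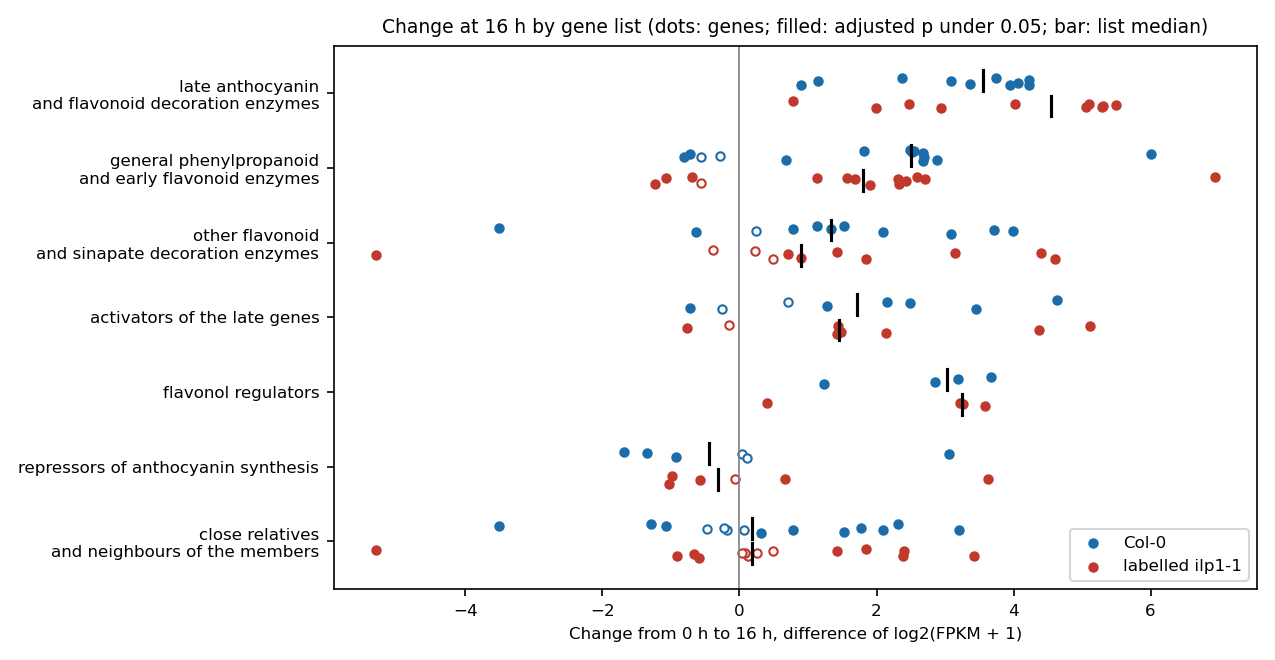
Change of log2(FPKM + 1) from 0 h to 16 h for the tested genes of 7 lists (dots, filled for adjusted p under 0.05) in Col-0 (blue) and in the libraries labelled ilp1-1 (red), with a bar at each list's median. The median of the 10 late genes is 3.55 in Col-0 and 4.54 in the libraries labelled ilp1-1, and that of the early enzymes is 2.50 and 1.80.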

How the data were processed

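Whole-leaf poly-A RNA was sequenced in 20 libraries, grouped by the genotype and time of the labels. FPKM values of 33104 genes were deposited by the authors in 10 tables. The tools HISAT2 2.0.5 and featureCounts 1.5.0-p3 and the build TAIR10 are named in the submitters' processing notes. Not given in the sources used here are their options, the strand setting and how FPKM was computed. In each library the product of FPKM and gene length fell on multiples of a single step, within 0.001 reads, which gave back 11.4 to 19.0 M reads per library and 76 to 28007 reads per member. The FPKM denominators were 0.889 to 1.18 times these totals. No column of values was left unused.

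Tests used log2(FPKM + 1) of the 19311 genes that reached 1 FPKM in 2 or more libraries, a filter all 10 members passed. The pseudocount understates changes of low genes. In R 4.3.3, limma 3.58.1 fitted a mean for each of 10 groups (eBayes with trend; residual df 10, median prior df 5.12) and 20 contrasts. A gene was called at a Benjamini-Hochberg adjusted p under 0.05 over all tested genes of a contrast. The fit was tested on simulated data. Alternatives were a pseudocount of 0.1, no filter, scaling to total recovered reads, no trend, a replicate block, only the libraries of the contrast, limma-voom on recovered reads, a fit without the 4 libraries labelled ilp1-1 of 4 h and 8 h, and each library left out in turn.

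The members, lists and rules were chosen with earlier results of these data known. All 10 members are named. Of each other list up to 4 genes with the smallest adjusted p in the mean genotype difference are named, and further genes are given with their values. The 8 genes of most similar course were ranked by Pearson correlation over 10 group means. Promoters were read from the RefSeq assembly TAIR10.1, where 32532 of 32548 matched nuclear genes had the same start and end as in the tables. Figures used Python 3.11.15, pandas 2.3.3 and matplotlib 3.10.9.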

Additional observations from a re-analysis of the deposited data

Results flagged for a closer look

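By the interaction term of the limma fit, the change from 0 h differed between genotypes for some of the 10 genes at each time. It was larger in the libraries labelled ilp1-1 for 2, 6, 6 and 6 members at 4, 8, 16 and 30 h. Among all tested genes 4.22, 6.49, 4.6 and 7.65% were called in that direction. Values are the change in the libraries labelled ilp1-1 minus that in Col-0, in log2(FPKM + 1), each with its adjusted p over all genes. TT19 gave 0.84, 1.35, 1.31 and 1.32 at 4, 8, 16 and 30 h (0.0314, 0.00101, 0.00104 and 0.000909). BGLU10 gave 0.82, 1.22, 1.10 and 1.15 at the same times (0.0223, 0.00114, 0.00216 and 0.00141). DFR gave 1.15 at 8 h (0.013), 1.33 at 16 h (0.00463) and 1.39 at 30 h (0.00308), and LDOX 1.00 at 8 h (0.0243), 1.24 at 16 h (0.00606) and 1.29 at 30 h (0.0043). UGT79B1 gave 0.88 at 8 h (0.0469), 0.87 at 16 h (0.0472) and 0.94 at 30 h (0.0292), UGT75C1 1.27 at 16 h (0.037) and 1.29 at 30 h (0.03), and SCPL10 0.60 at 8 h (0.0421). These interactions share their 0 h libraries. Leaving out ilp1-1 0 h replicate 2 ended the calls of TT19 at 4 h, DFR, LDOX and SCPL10 at 8 h, UGT75C1 at 16 h and 30 h and UGT79B1 at 8, 16 and 30 h. Other alternatives ended calls too. Of 27 alternatives, 9 ended that of TT19 and 5 that of BGLU10 at 4 h. At 8 h 4 ended that of DFR, 7 that of LDOX and 13 that of SCPL10. No filter and no trend were among those for TT19, LDOX and SCPL10.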

How the results depend on the processing

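Of 200 member results (10 genes, 20 contrasts), 160 were called, none of these reversed under any alternative tried, and 136 were called under every one. The number of members called in the genotype difference at 0 h went from 4 to 2 with no filter, with no trend or with only the libraries of the contrast. For the interaction at 4 h it went from 2 to 1 with no filter or no trend and to 0 with only its own libraries, where limma gave 3 at an unadjusted p under 0.05 and limma-voom on all libraries called 2. The interaction at 8 h went from 6 to 3 with no filter or no trend, and that at 30 h from 6 to 3 with only its own libraries. Scaling to total recovered reads turned the sign of values that were not called: LDOX at 0 h (0.016), UGT78D1 at 16 h (0.23), SCPL10 at 30 h against 0 h in Col-0 (0.10) and in the libraries labelled ilp1-1 (0.052), UGT78D2 at 30 h in the latter (0.044), and the interactions of SCPL10 at 4 h (0.051) and UGT78D2 at 16 h (0.036) and 30 h (0.075). Limma-voom turned the interaction of UGT78D1 at 8 h (-0.0044). The cause was not tested.

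With 1 library left out, the lone sample of a group is assumed to vary like the others. Members called ranged from 2 to 4 in the genotype difference at 0 h, from 3 to 7 at 4 h, and from 0 to 4 and 2 to 7 for the interactions at 4 h and 8 h; the 0 came without Col-0 0 h replicate 2 or ilp1-1 4 h replicate 1, with 2 and 5 members at an unadjusted p under 0.05. At 0 h the uncalled genotype differences ranged from -0.51 to 0.11 for DFR, -0.35 to 0.17 for LDOX, -0.60 to 0.0082 for TT19, -0.71 to 0.38 for UGT75C1 and -0.23 to 0.48 for UGT79B1, and at 16 h that of ILP1 from -0.24 to 0.27. Uncalled changes from 0 h in Col-0 ranged from -0.18 to 0.013 for BGLU10 at 8 h and, at 30 h, from -0.32 to 0.077 for 5MAT, -0.12 to 0.11 for SCPL10 and -0.14 to 0.33 for BGLU10. At 30 h in the libraries labelled ilp1-1 they ranged from -0.37 to 0.0080 for UGT78D2 and -0.34 to 0.0020 for SCPL10. Uncalled interactions at 4 h ranged from -0.12 to 0.26 for UGT78D2, -0.17 to 0.37 for 5MAT and -0.18 to 0.17 for SCPL10, at 8 h from -0.14 to 0.17 for UGT78D1, at 16 h from -0.073 to 0.27 for SCPL10, and at 30 h from -0.23 to 0.15 for UGT78D2 and -0.34 to 0.0026 for SCPL10.

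Replicate numbers did not pair the libraries: deviations of same-numbered libraries correlated at -0.148 to 0.126, over 0.1 in 1 of 45 pairs of groups. With the replicate block 3 of the 160 calls were lost, UGT78D1 at 0 h (0.31, adjusted p = 0.0577) and the interactions of UGT79B1 at 8 h (0.88, 0.0565) and 16 h (0.87, 0.0569). Over all genes, calls in the genotype difference went from 4292 to 1565 at 0 h, 5900 to 3878 at 4 h, 5343 to 3514 at 16 h and 6573 to 3974 at 30 h with only the libraries of the contrast, and the interaction at 4 h from 1804 to 1060. Single libraries moved such counts by over 1.5 times as well: to 2508 at 0 h without Col-0 0 h replicate 2, from 5700 to 3767 at 8 h without ilp1-1 8 h replicate 2, to 3528 at 16 h without ilp1-1 16 h replicate 2, and for the interaction at 4 h to 1202 without Col-0 0 h replicate 2 and 1179 without ilp1-1 4 h replicate 2. With total-read scaling, the share of higher genes among those called went from 45.1 to 65.4% at 0 h, 48.2 to 70.9% at 4 h, 48.5 to 63.1% at 8 h, 50.5 to 76.3% at 30 h and 51.3 to 74.1% in the mean, and for the interactions from 45.2 to 57.0% at 4 h and 45.4 to 64.0% at 30 h.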

Other observations

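F3H, the enzyme between chalcone isomerase and DFR, was listed at 0 to 1.52 FPKM, whereas CHS reached 4043 and DFR 1184 FPKM. Its span of 1681 bases is covered over 1588 bases by the lncRNA gene AT3G51238 on the opposite strand, itself at 0 to 0.175 FPKM. UGT89C1, the flavonol rhamnosyltransferase that acts after UGT78D2, was listed at 0 in all 20 libraries, and AT1G06002 on the opposite strand covers 1580 of its 1587 bases. The part of these overlaps in the low values was not tested, and both genes are left without a level here, though F3H is counted among the early flavonoid genes above. Of 8 genes of the proanthocyanidin branch of the seed coat, 3 passed the filter on low values, AHA10, TT10 and TT15. The branch enzyme BAN had at most 0.1425 FPKM. AHA10 went from 0.919 and 0.635 FPKM at 0 h to 4.85 and 5.98 at 16 h in Col-0. In the libraries labelled ilp1-1 it went from 0.788 and 0.374 to 13.4 and 11.9. TT15 had 4.34 to 12.1 FPKM. TT10 reached 1 FPKM only in the libraries labelled ilp1-1 of 16 h (1.31 and 1.11), the group where it is highest.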
